A study of Mus musculus with 2 samples.

Results

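The aminoacyl-tRNA synthetases were followed in a pair of RNA sequencing libraries from MIN6, an insulin-secreting line derived from a mouse insulinoma and used in place of primary beta cells. The members were chosen by gene symbol, 36 of the 27179 gene rows of the count table. They comprise 20 genes for enzymes of the cytosol and 16 genes whose names end in 2, for enzymes of the mitochondrion. Cells of 1 library, labelled C2cd4a-GFP, expressed C2cd4a fused to green fluorescent protein, and cells of the other, labelled control-GFP, expressed a control with the same fluorescent protein. Both cultures are the same cell line, and their labels describe adenoviral infection at a multiplicity of infection of 100 and harvest after 72 to 96 h. In the labels' treatment field the C2cd4a-GFP construct is written for either library. Grouping therefore follows the title and the field on the expressed protein. With 1 library per condition there is no replicate check, and every interval below is a 95% interval for counting error only.

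These enzymes attach each amino acid to its transfer RNA and so supply the ribosome. Nuclear genes encode the cytosolic and the mitochondrial sets, the latter for the few proteins made from mitochondrial DNA. Several cytosolic synthetases are held in a large complex by the scaffold proteins Aimp1, Aimp2 and Eef1e1. In mammalian cells short of amino acids or under endoplasmic reticulum stress, kinases of the initiation factor eIF2 favour translation of ATF4, a transcription factor whose targets include many cytosolic synthetases, amino acid transporters and enzymes of amino acid synthesis. ATF4 binds with C/EBP partners at a composite element known as CARE. Insulin is made in large amounts in beta cells, which places a heavy demand on protein synthesis there.

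Promoters were compared for that element because cytosolic synthetases are known ATF4 targets. The members, the lists and the motif were chosen with earlier results of these data known, so the shares below are descriptions only. Whether ATF4 acts at these sites in these cells was not tested. The search used the letters TGATGNAA on both strands, in windows from 250 bases before to 50 bases after each annotated start (RefSeq, GRCm38.p6). Promoters were matched by gene ID for 27 members. The last 25 bases of the window were found in the longest coding transcript of the gene for 20 of these 27. The letters occurred in a promoter of 5 of 13 cytosolic genes (38.5%) and of 0 of 14 mitochondrial genes, against 3.97% of all 32851 promoters. Members are counted by gene and the background by promoter, so the shares are not like for like where a gene has several promoters. Of 28 matched genes from 3 lists of ATF4-linked genes described further on, 9 had a promoter that held it (32.1%). No match says only that these letters are not in the window. Unmatched members were Cars, Hars, Lars, Nars, Rars, Vars, Wars, Hars2 and Pars2. The 120 bases before the start are shown 5′ to 3′ for Aars (chr8:111033722-111033841, plus strand), Gars (chr6:55037881-55038000, plus strand) and Tars (chr15:11399659-11399778, minus strand). For Iars (chr13:49682126-49682155, plus strand) and Yars (chr4:129189895-129189924, plus strand), where the letters lie just past the start, 30 bases are shown. Lars2 (chr9:123366807-123366926, plus strand) is shown as a mitochondrial promoter without the letters, since its transcript differed most between the libraries. Capitals mark the element. The annotated start used here differs from the gene start of the count table for Aars (111033967), Yars (129189795) and Lars2 (123366940).
Aars: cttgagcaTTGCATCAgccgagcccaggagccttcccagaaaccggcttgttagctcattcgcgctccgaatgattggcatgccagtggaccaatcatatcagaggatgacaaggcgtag
Gars: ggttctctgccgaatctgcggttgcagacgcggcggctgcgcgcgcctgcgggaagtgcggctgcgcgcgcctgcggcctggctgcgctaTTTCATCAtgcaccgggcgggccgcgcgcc
Tars: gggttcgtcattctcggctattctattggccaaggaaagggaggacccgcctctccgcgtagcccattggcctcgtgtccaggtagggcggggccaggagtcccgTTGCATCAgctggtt
Iars: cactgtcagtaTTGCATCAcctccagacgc
Yars: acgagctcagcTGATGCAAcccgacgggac
Lars2: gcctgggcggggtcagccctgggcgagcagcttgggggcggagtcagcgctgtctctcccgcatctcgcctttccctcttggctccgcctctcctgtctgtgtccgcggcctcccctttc

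The libraries held 30164106 counts (C2cd4a-GFP) and 31039999 counts (control-GFP). C2cd4a itself, the gene introduced, had 49238 counts against 133. Beta-cell markers were abundant, with all 8 of the fixed list above 1 CPM (counts per 1000000 after library scaling) and a summed level of 78046 CPM against 89084 CPM, of which Ins1 was lower at 1715 CPM against 3218 CPM. Of 6 acinar and ductal markers 5 had 0 counts in both libraries, and the list summed to 1.1 CPM in each library. Among markers of other islet endocrine cells, Gcg stood at 74.9 CPM against 49.4 CPM and Hhex had 0 counts in both libraries. What part, if any, such cells have in the ratios below was not tested. Mesenchymal, endothelial and immune markers summed to 4.67 CPM against 4.51 CPM. The most abundant of them were Pecam1 (2.16 CPM against 1.93 CPM) and Cd68 (2.03 CPM against 1.80 CPM), while Col3a1 and Cdh5 were at 0 in both.

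Cytosolic synthetase transcripts were abundant and mitochondrial ones scarce, with Lars2 as the exception. Levels per length, in CPM per kb of exon, ran from 32.1 to 286 across the 20 cytosolic genes in the control-GFP library, with a median of 79.0. In the C2cd4a-GFP library the same genes ran from 32.7 to 334, with a median of 85.5. The 15 mitochondrial genes other than Lars2 lay between 1.39 and 18.5 CPM per kb in the control-GFP library, all below the lowest cytosolic gene. Lars2, the mitochondrial leucine enzyme, stood at 110 CPM per kb in the control-GFP library and 183 in the C2cd4a-GFP library. It lay among the cytosolic genes, above its own cytosolic partner Lars at 77.3 and 93.0 CPM per kb. What part ribosomal RNA reads have in the Lars2 count, a point taken up further on, was not tested.

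**Figure D1:**
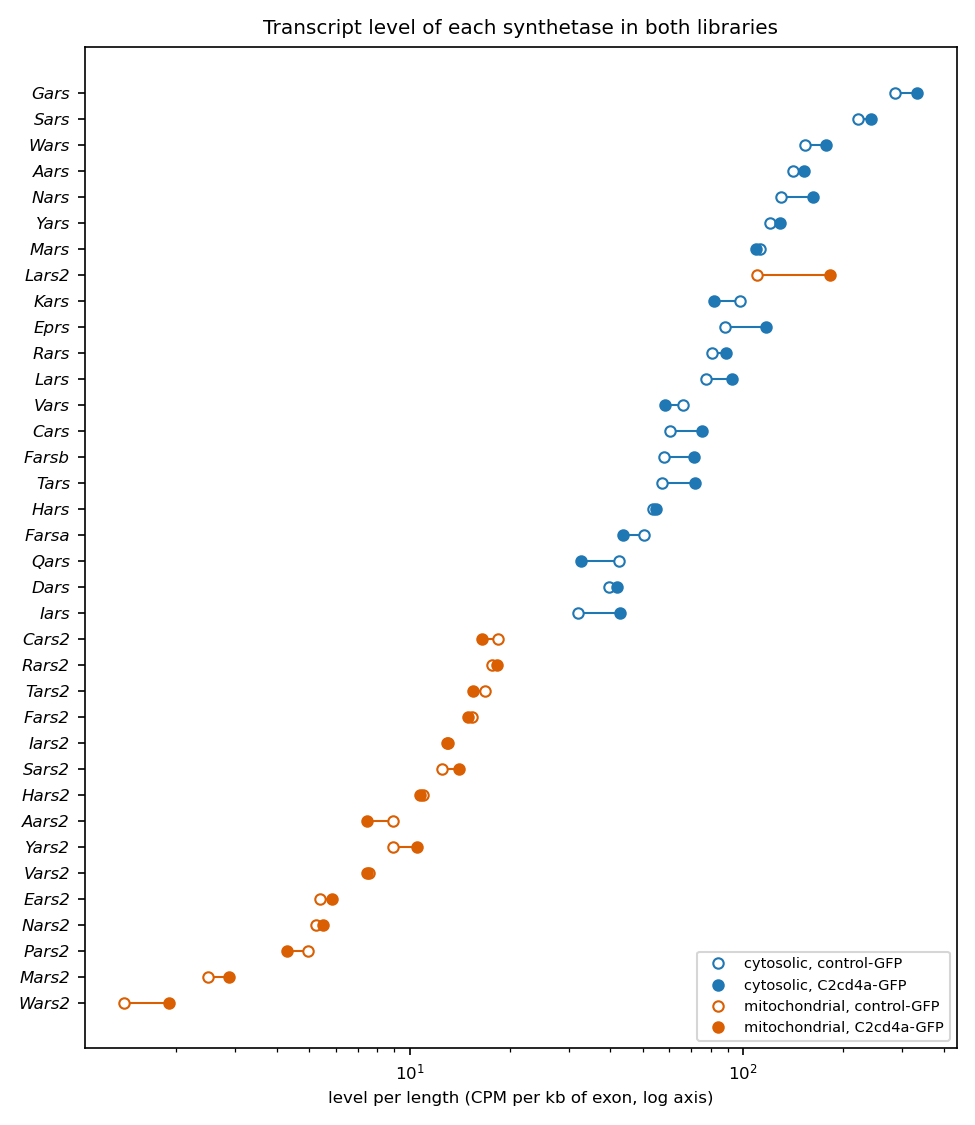
Level of each synthetase transcript per length (CPM per kb of exon, log axis) in the control-GFP library (open circles) and the C2cd4a-GFP library (filled circles), 1 library each, ordered by the control level. Cytosolic genes fill the upper part, from 32.1 to 286 in the control library, and Lars2 is the 1 mitochondrial gene among them.

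Gars, for glycine, was the most abundant per length in the control-GFP library at 286 CPM per kb, followed by Sars, for serine, at 221. Wars, for tryptophan, at 153, Aars, for alanine, at 141, Nars, for asparagine, at 131 and Yars, for tyrosine, at 121 came next. The counting intervals of these neighbours did not overlap. Further down, several neighbours did overlap: Mars and Lars2 (113 and 110 CPM per kb), Rars and Lars (80.7 and 77.3), and the run from Cars through Farsb, Tars and Hars to Farsa (60.4 to 50.3), each with the next. Qars and Dars (42.5 and 39.8 CPM per kb) also overlapped, and Iars, for isoleucine, was the lowest cytosolic member. Among mitochondrial genes other than Lars2, Cars2 was the highest (18.5), and Mars2 (2.48) and Wars2 (1.39) the lowest.

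Most cytosolic synthetases were modestly higher in the C2cd4a-GFP library, while mitochondrial synthetases showed no shared direction. Of the 20 cytosolic genes, 15 had a ratio above 1, as did 8 of the 16 mitochondrial genes and 49.2% of the 12759 genes of at least 1 CPM. All 36 synthetases passed that minimum. The median log2 ratio (C2cd4a-GFP over control-GFP) was 0.14 for the cytosolic genes and 0.02 for the mitochondrial genes, beside -0.01 over all 12759 genes. The counting interval lay above equal levels for 13 of 20 cytosolic genes and 4 of 16 mitochondrial genes, against 30.6% of all genes. It lay below for 5 of 20 cytosolic and 4 of 16 mitochondrial genes, against 33% of all genes. Whether an interval excludes equal levels also depends on the number of counts, so these shares are not like for like. In the control-GFP library the median count was 7518.5 for the cytosolic genes and 916 for the mitochondrial genes other than Lars2. Summed over the 20 cytosolic genes, 207270 counts stood against 185684, a ratio of 1.11 (log2 0.16, interval 0.15 to 0.17). Without Lars2, the mitochondrial genes summed to 12463 counts against 12665, a log2 ratio of -0.02 (-0.06 to 0.01).

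Large differences were rare in the family. The fixed size rule asked for at least 1.5-fold and an interval that excludes equal levels. It was met upward by 1 of 36 synthetases, Lars2, where 4.23% of all genes met it, and downward by 0, where 4.23% of all genes met it. With the minimum lowered to a ratio of 5 to 4, Iars, Eprs and Tars were higher among the cytosolic genes and Lars2 and Wars2 among the mitochondrial, where 13.9% of all genes were higher. Only Qars was lower by that ratio, where 13.5% of all genes were lower. In the authors' deposited table, 3 of 20 cytosolic genes and 1 of 16 mitochondrial genes rose at an adjusted p under 0.05, where 7% of all 14619 genes with an adjusted p rose. Cytosolic genes fell in 2 of 20 cases and mitochondrial genes in 0 of 16 in the authors' deposited table, where 6.58% of all genes fell. With so few genes called, these shares are not far from the background.

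**Figure D2:**
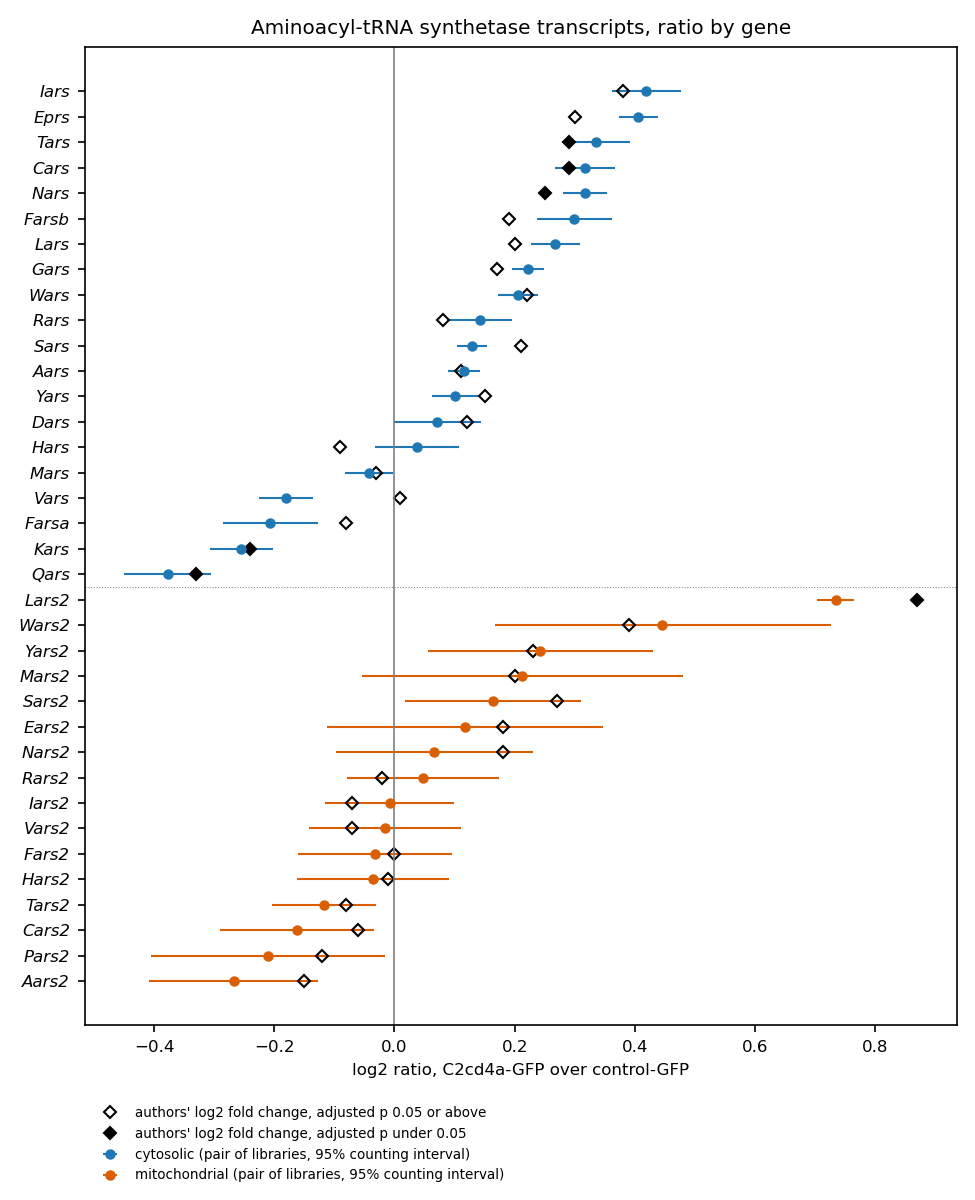
Log2 ratio of C2cd4a-GFP over control-GFP for each synthetase (filled circles with 95% counting intervals, 1 library per condition) and the authors' log2 fold change (diamonds, filled where their adjusted p is under 0.05). The cytosolic genes run from -0.38 (Qars) to 0.42 (Iars), and Lars2 stands alone at 0.73.

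The cytosolic enzymes that rose were those for cysteine, asparagine and threonine. Cars (gene ID 27267, mm10 chromosome 7, 143557230 to 143600090), for cysteine, had 7429 counts with C2cd4a-GFP and 5956 with control-GFP, or 243 and 195 CPM. Its log2 ratio was 0.32 (0.27 to 0.37), and Cars rose by 0.29 on the log2 scale in the authors' deposited table (DESeq2 adjusted p = 0.00666). C2cd4a-GFP was thus the higher for Cars both in the pair of libraries and in the authors' deposited table. The authors' values may rest on the same libraries, so the shared direction is not independent support.

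Nars (gene ID 70223, chromosome 18, 64499647 to 64516557), for asparagine, had 13191 counts against 10579, or 431 and 346 CPM. Its log2 ratio was 0.32 (0.28 to 0.35), and Nars rose by 0.25 in the authors' deposited table (DESeq2 adjusted p = 0.0395). Tars (gene ID 110960, chromosome 15, 11383663 to 11399658), for threonine, had 5814 counts against 4603, or 190 and 151 CPM, which gives 0.34 (0.28 to 0.39) in log2 terms. In the authors' deposited table Tars rose by 0.29 (DESeq2 adjusted p = 0.0322). Tars is also 1 of the 5 members whose promoter holds the CARE letters, there 15 bases before the start. The other 4 had log2 ratios of 0.42 (Iars), 0.22 (Gars), 0.12 (Aars) and 0.10 (Yars), and none of them passed in the authors' deposited table.

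Iars and Eprs differed more between the libraries than these, yet missed the threshold of the authors' deposited table. Iars, for isoleucine, had 5773 counts against 4313, or 189 and 141 CPM, which is 0.42 (0.36 to 0.48) in log2 terms. For Iars the authors' deposited table gives 0.38 with a DESeq2 adjusted p of 0.081. Eprs, a fused enzyme for glutamate and proline, had 17389 counts against 13112, or 568 and 429 CPM, which is 0.41 (0.37 to 0.44) in log2 terms. For Eprs the authors' deposited table gives 0.30 with an adjusted p of 0.222. The normalized value in the authors' deposited table was 0.857 times the raw count for Eprs with C2cd4a-GFP and 0.922 times with control-GFP. For Iars the authors' deposited table gives 0.886 and 0.913 times, while the medians over the 36 synthetases were 1.03 and 1.01. Wars, for tryptophan, whose gene is also known to respond to interferon gamma in human cells, had 15626 counts against 13531, a difference of 0.21 (0.17 to 0.24) in log2 terms. For Wars the authors' deposited table gives 0.22 with an adjusted p of 0.0607.

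Kars and Qars went the other way. Kars (gene ID 85305, chromosome 8, 111993440 to 112011305), whose gene supplies the lysine enzyme of both compartments, had 5453 counts against 6498, or 178 and 212 CPM. Its log2 ratio was -0.25 (-0.31 to -0.20), and in the authors' deposited table it fell by 0.24 on the log2 scale (DESeq2 adjusted p = 0.0344). Qars (gene ID 97541, chromosome 9, 108508005 to 108515941), for glutamine, had 2725 counts against 3535, or 89.0 and 116 CPM. Its log2 ratio was -0.38 (-0.45 to -0.30), the lowest of the 36, and Qars fell by 0.33 on the log2 scale in the authors' deposited table (DESeq2 adjusted p = 0.0071).

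Gars, the other gene that serves both compartments, was higher in the C2cd4a-GFP library, at 24417 counts against 20908 and 0.22 (0.20 to 0.25) in log2 terms. Gars missed the threshold in the authors' deposited table (DESeq2, 0.17, adjusted p = 0.198). Mitochondria have no glutamine enzyme of their own. There the glutamate enzyme Ears2 charges the transfer RNA and an amidotransferase made of Qrsl1, Gatb and Gatc converts the product. Ears2 had 330 counts against 304, and its interval (-0.11 to 0.35 around 0.12) held equal levels. Qrsl1 was at 0.25 (0.09 to 0.40), and the authors' deposited table lists it as risen (0.33, DESeq2 adjusted p = 0.0248). Gatc did not differ beyond counting error (-0.11 to 0.10).

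Members and non-members of the multisynthetase complex each included genes that were higher and lower. Of the 8 enzymes of the complex, Iars, Eprs, Lars and Rars had intervals above equality and Mars, Kars and Qars below it, with a median log2 ratio of 0.11. Mars lay on the other side with scaling by total counts (0.00033) and after removal of the length and GC trends (0.06). Kars and Qars fell and 0 of these 8 rose, by the authors' deposited table. Of the 12 cytosolic genes outside the complex, 9 had intervals above equality and 2 below (Vars and Farsa), with a median of 0.17, and 3 rose and 0 fell by the authors' deposited table. Over all genes, 30.6% of intervals lay above equality and 33% below, and 7% of genes rose and 6.58% fell by the authors' deposited table. The subunits of 1 enzyme also parted. Farsb, the beta subunit of the phenylalanine enzyme, had 4654 counts against 3778 and a log2 ratio of 0.30 (0.24 to 0.36), while Farsa, the alpha subunit, had 2443 against 2816 and -0.21 (-0.29 to -0.13). The difference between the subunits was 0.51 (0.41 to 0.61) on the log2 scale, and neither passed in the authors' deposited table (0.19 and -0.08). By catalytic fold, class I cytosolic enzymes had a median of 0.14 (9 genes) and class II of 0.12 (10 genes), with the fused Eprs in neither count.

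The other 9 cytosolic genes lay between -0.18 and 0.27. Sars, Aars and Yars were higher by small amounts with narrow intervals, at 0.13 (0.10 to 0.15), 0.12 (0.09 to 0.14) and 0.10 (0.06 to 0.14). Lars was at 0.27 (0.23 to 0.31) and Rars, for arginine, at 0.14 (0.09 to 0.20). Hars, for histidine, at 0.04 (-0.03 to 0.11) and Dars, for aspartate, at 0.07 (upper bound 0.14) had intervals that held equal levels. Mars, for methionine, was at -0.04 (-0.08 to -0.0027), just below them. Vars, for valine, was at -0.18 (-0.23 to -0.14) between the libraries but at 0.01 in the authors' deposited table.

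Lars2 was the single synthetase that met the size rule. Lars2 (gene ID 102436, chromosome 9, 123366940 to 123462664) had 21733 counts with C2cd4a-GFP and 13051 with control-GFP, or 710 and 427 CPM. This is a ratio of 1.66, with a log2 ratio of 0.73 (0.70 to 0.77), and Lars2 rose by 0.87 in the authors' deposited table (DESeq2 adjusted p = 0.00504). It carried most counts of the mitochondrial set, whose other 15 genes had between 254 and 2106 counts each in the C2cd4a-GFP library. With Lars2 the mitochondrial set summed to a log2 ratio of 0.41 (0.39 to 0.43).

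Ribosomal RNA precursor counts moved with Lars2. Rn45s, the precursor of the large ribosomal RNAs, had 189470 counts against 120480 and stood at 0.65 (0.64 to 0.66), and Rn18s was at 0.69 (0.64 to 0.73). In the authors' deposited table both rose by 0.81 (DESeq2 adjusted p = 0.00166 and 0.00207). Lars2 exceeded Rn45s by 0.08 (0.05 to 0.12) on the log2 scale and did not differ from Rn18s beyond counting error (0.05, -0.01 to 0.10). The Lars2 transcript was aligned to the gene model Gm15564 only. Bases 3278 to 3349 of the 3894-base Lars2 transcript matched a transcript of Gm15564 at 98.6% identity over 72 bases. Of the 3853 windows of read length (42 bases) in Lars2, 11 occurred exactly in that gene model and none in annotated transcripts of other genes. The mitochondrial ribosomal RNAs Rnr1 and Rnr2 were also higher, by 0.43 (0.39 to 0.48) and 0.39 (0.35 to 0.42). The sequence of Rn45s was not compared with Lars2 here, and the part that ribosomal RNA reads play in the Lars2 count was not tested.

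By the authors' deposited table (DESeq2) 0 of the other 15 mitochondrial genes passed in either direction, and their median log2 ratio in the pair was -0.01. Wars2, the mitochondrial tryptophan enzyme, was the highest of them at 0.45 (0.17 to 0.73), on 255 counts against 187. Yars2, for tyrosine, at 0.24 (0.06 to 0.43) and Sars2, for serine, at 0.16 (0.02 to 0.31) were the others with intervals above equality. Aars2, for alanine, had 762 counts against 916 and was the lowest at -0.27 (-0.41 to -0.13). Pars2 at -0.21 (-0.41 to -0.02), Cars2 at -0.16 (-0.29 to -0.03) and Tars2 at -0.12 (-0.20 to -0.03) also had intervals below it. The intervals of the remaining 8 held equal levels. With counts this low in several of these genes, differences of the size seen among the cytosolic enzymes were not always detectable at this depth: the interval of Mars2, on 254 counts against 219, ran from -0.05 to 0.48.

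Setting the cytosolic and mitochondrial enzymes of an amino acid side by side removes the scaling of the libraries, since both genes are read in the same pair. Of 17 such pairs, formed with the 16 mitochondrial genes, the cytosolic enzyme had the higher log2 ratio beyond counting error in 8, the mitochondrial enzyme in 3, and 6 intervals held no difference. The widest gaps in favour of the cytosolic gene were Eprs over Pars2 (0.62, 0.42 to 0.81), Cars over Cars2 (0.48, 0.34 to 0.62), Tars over Tars2 (0.45, 0.35 to 0.55) and Iars over Iars2 (0.43, 0.31 to 0.55). The leucine pair was the widest in the other direction, at -0.47 (-0.52 to -0.42), and rests on the Lars2 count with the limit given above. Vars with Vars2 (-0.16, -0.30 to -0.03) and Farsa with Fars2 (-0.17, -0.32 to -0.03) were the others with the mitochondrial gene ahead. The authors' log2 fold changes, set side by side from the authors' deposited table, had the cytosolic gene ahead in 10 of 17 pairs. The pair of libraries also gave 10, but not the same pairs: in the authors' deposited table Vars was ahead of Vars2 by 0.08 and Hars was behind Hars2 (-0.08, against 0.07 in the libraries). With the trends in length and GC content removed, as described further on, the count was 11. Eprs over Pars2 was then 0.34 and Farsb over Fars2 0.19, and Eprs was no longer ahead of Ears2 (-0.04). Cars over Cars2, at 0.52, was then the widest gap in favour of the cytosolic gene, and the leucine pair was at -0.57.

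**Figure D3:**
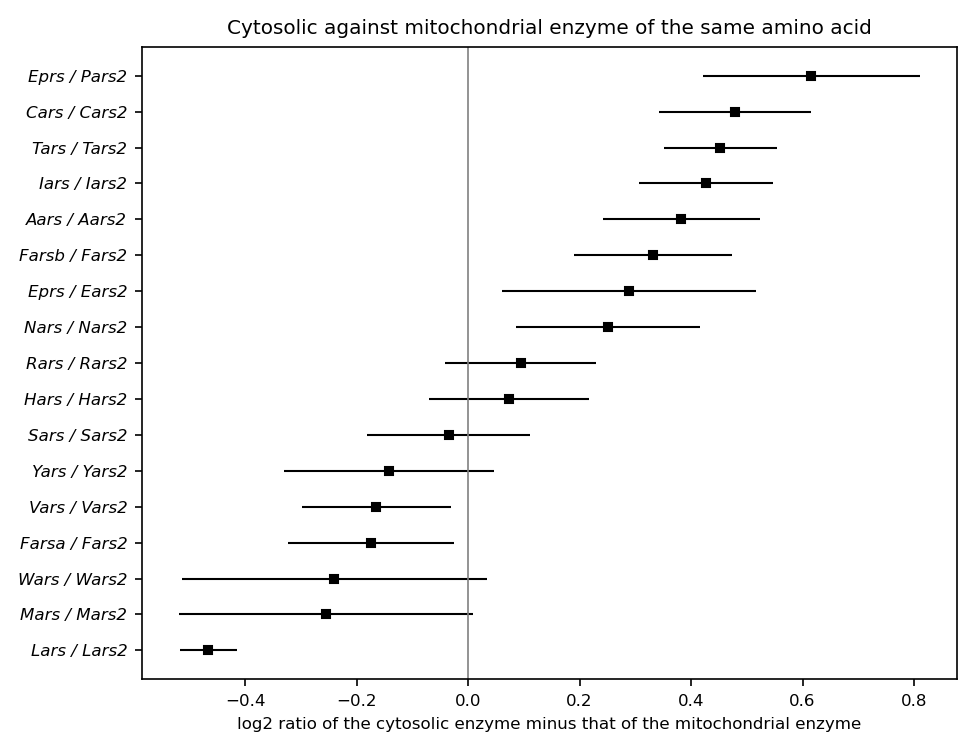
Difference between the log2 ratio of the cytosolic enzyme and that of the mitochondrial enzyme for the same amino acid (squares, with 95% intervals from the 4 counts). Positive values mean that the cytosolic gene gained more; 8 of 17 intervals lie above 0 and 3 below, with Lars and Lars2 at -0.47.

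Other genes of the pathway showed where the synthetases stood. The 33 ATF4-linked genes came from 3 lists, and the lists were drawn up with earlier results of these data known. By the authors' deposited table, 22 of them rose and 0 fell, and their median log2 ratio in the pair was 0.31, against 0.14 for the cytosolic synthetases. Over all genes the authors' deposited table has 7% that rose and 6.58% that fell, and since the lists were drawn up with results known, their counts are no independent evidence of a direction. Amino acid transporters had the highest median, 0.43 over 9 genes, and 7 of the 9 rose by the authors' deposited table, with 0 falling. Slc7a11, the cystine and glutamate exchanger, was at 1.24 (1.07 to 1.40), Slc38a2, a neutral amino acid transporter, at 0.83 (0.78 to 0.88), Slc7a1, a cationic one, at 0.62 (0.57 to 0.67) and the glycine transporter Slc6a9 at 0.47 (0.38 to 0.55).

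Enzymes of amino acid synthesis had a median of 0.30 over 12 genes, and 9 of the 12 rose by the authors' deposited table, with 0 falling. Asns, which makes asparagine, was at 0.28 (0.25 to 0.31), close to Nars, and Psat1 of serine synthesis was at 0.32 (0.29 to 0.35). ATF4 regulators and stress targets had a median of 0.22 over 12 genes, and 6 of them rose by the authors' deposited table, with 0 falling. The median of these 12 was 0.42 after removal of the length and GC trends and 0.38 in the authors' deposited table. Among them were Cebpg (0.67, 0.62 to 0.73), a C/EBP partner of ATF4, Cebpb (0.48, 0.37 to 0.58), the pseudokinase gene Trib3 (0.42, 0.39 to 0.46) and Atf3 (0.39, 0.31 to 0.47). Atf4 itself was at 0.20 (0.18 to 0.23), with an adjusted p of 0.097 in the authors' deposited table.

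**Figure D4:**
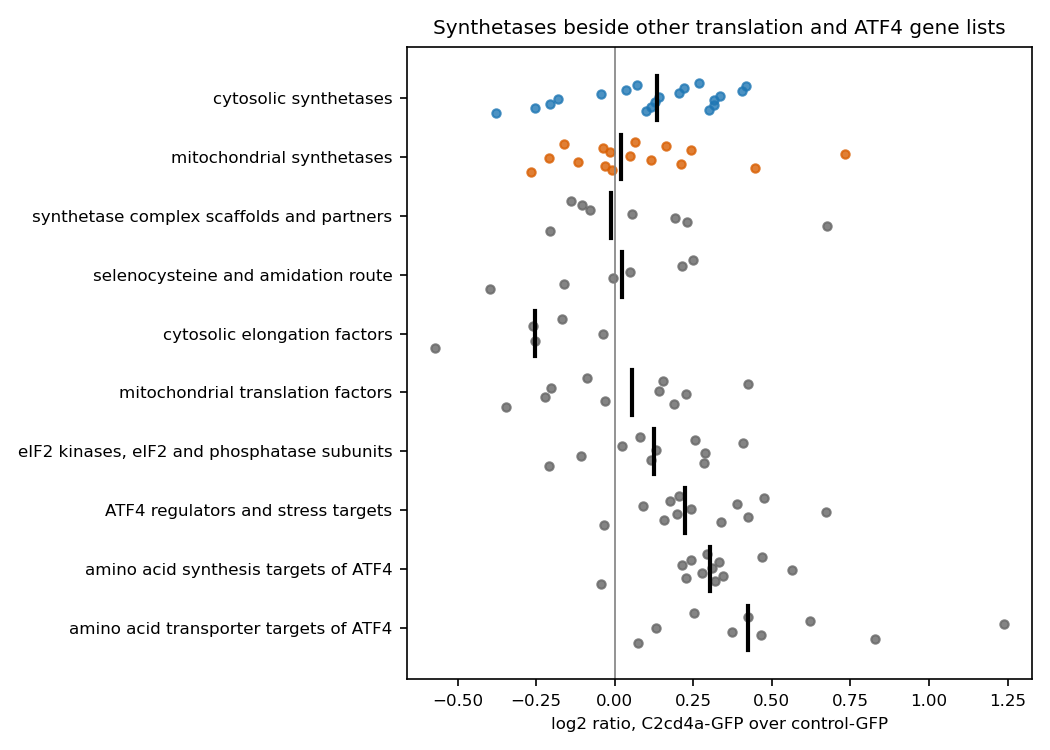
Log2 ratio of C2cd4a-GFP over control-GFP for the genes of 10 lists with at least 1 CPM (1 point per gene, black bars mark medians, points spread vertically for legibility). The medians run from 0.14 for cytosolic synthetases and 0.02 for mitochondrial synthetases to 0.43 for amino acid transporter targets of ATF4, and the cytosolic elongation factors sit lowest.

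Partners of the synthetases were mixed in direction. Among 8 scaffold and partner genes the median was -0.01, and Xpot, the exporter of transfer RNA from the nucleus, was the 1 that rose in the authors' deposited table (0.65, DESeq2 adjusted p = 3.18e-10) and 0 fell. Xpot had 6215 counts against 3888 in the pair, which is 0.68 (0.62 to 0.73) in log2 terms. The scaffold gene Aimp2 was at 0.23 (0.14 to 0.32), while Aarsd1, which encodes an editing protein related to the alanine enzyme, was at -0.21 (-0.28 to -0.14) and Dtd1, which removes D-amino acids from transfer RNA, at -0.14 (-0.22 to -0.06). Of 6 selenocysteine and amidation genes, Qrsl1 alone rose by the authors' deposited table and 0 fell, and the median in the pair was 0.02.

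Of 10 genes for eIF2 kinases, eIF2 subunits and their phosphatase, Ppp1r15b rose (0.27, adjusted p = 0.0195) and 0 fell in the authors' deposited table. The median of these 10 was 0.12 in the pair, with Ppp1r15b at 0.28 (0.23 to 0.34) and the kinase partner Gcn1l1 at 0.12 (0.06 to 0.17). The genes listed as cytosolic elongation factors went the other way in the pair. Of 6 such genes 5 reached 1 CPM, and all 5 were lower in the C2cd4a-GFP library (median -0.25), 4 of them beyond counting error. In the authors' deposited table the median of these 5 was -0.11, with 4 below 0 and 1 above. Eef1a1 was at -0.17 (-0.18 to -0.16) and Eef2 at -0.57 (-0.59 to -0.55), and Eef2 was the 1 that fell in the authors' deposited table (-0.45, adjusted p = 0.00133), where 0 rose. The 10 mitochondrial translation factors had a median of 0.05, with Gfm1 at 0.19 (0.09 to 0.29) and Tsfm at -0.20 (-0.31 to -0.10), and by the authors' deposited table (DESeq2) 0 passed in either direction.

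Base composition moved with the ratio across all genes. Over 12216 genes with at least 1 CPM and a GC value, Spearman's rho between the log2 ratio and GC content of the transcript was -0.47, and with exon length it was 0.35. Genes within 1 pair of libraries share depth and scaling, and these correlations are descriptions. Among the 36 synthetases rho with GC content was -0.32. Eprs, with a high ratio, had 44.0% GC, and Vars, with a low ratio, had 60.9% GC. After the trends with length and GC content were removed, the cytosolic median was 0.18 and the mitochondrial median 0.01. Eprs then stood at 0.20, Iars at 0.32, Cars at 0.41, Tars at 0.31, Nars at 0.30, Kars at -0.24, Qars at -0.31, Vars at -0.04 and Lars2 at 0.73.

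**Figure D5:**
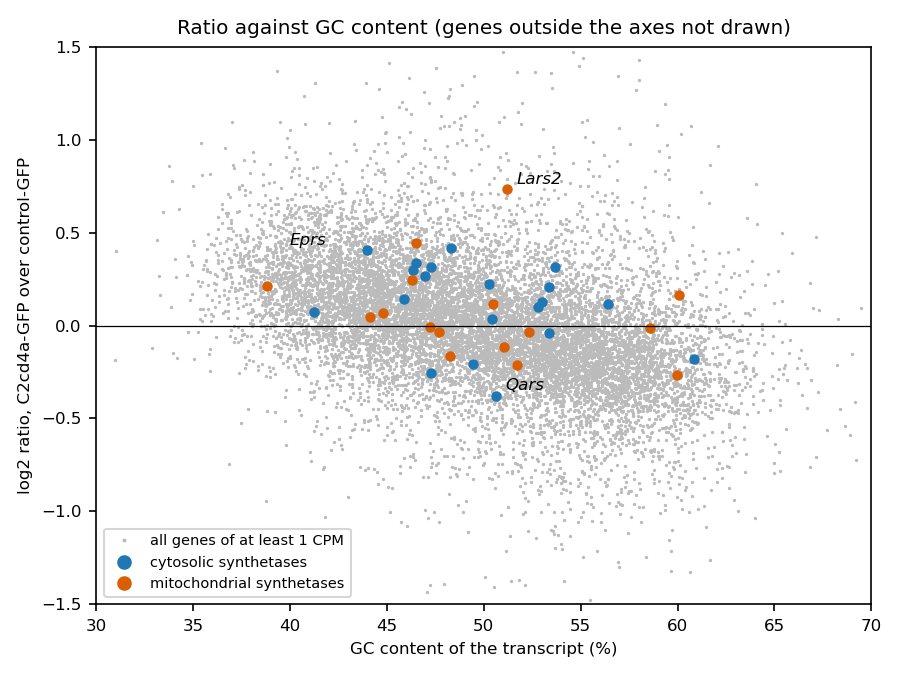
Log2 ratio of C2cd4a-GFP over control-GFP against GC content of the longest annotated transcript (%), for all genes of at least 1 CPM (grey) and the synthetases (coloured). The grey cloud slopes downward (rho -0.47), and Lars2 at 0.73 and Qars at -0.38 lie at similar GC content, 51.2% and 50.6%.

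Some members share exons or transcript sequence with other genes, so their counts may be less certain. Exons of Aars overlapped those of Exosc6 by 532 bp on the same strand. Mars overlapped the stress gene Ddit3 by 68 bp, Iars2 overlapped Rab3gap2 by 85 bp and Yars overlapped C77080 by 30 bp, each on opposite strands. Read-length windows were taken from the longest coding GENCODE M21 transcript and matched on either strand to transcripts of other genes. Of the windows of Iars2, 36.7% occurred in Rab3gap2, and 22.5% of those of Aars occurred in Exosc6. That Iars2 transcript has 5471 bases, against 3540 bp of exon in the count table. For Cars2 the share was 18.6% (Naxd), for Iars 11.7% (the gene model Gm4849) and for Farsb 10.5% (Sgpp2). The gaps of Cars over Cars2 and of Iars over Iars2, and the difference between Farsb and Farsa, involve these genes. In the annotation of the count table, Cars2, Iars and Farsb had no exon overlap with another gene. The window shares are of annotated transcripts and not of counts. What part of any count is ambiguous was not tested. Hars and Hars2 had 154 windows in common. The sources used here do not give whether strand was used in counting.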

How the data were processed

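Per the labels' protocols, poly-A RNA was made into directional libraries and read from both ends over 42 bp. The submitters' processing notes name STAR 2.5.2b, featureCounts, Subread 1.5.2, DESeq2 1.14.1 and mm10. The deposited counts are raw whole numbers per gene, 1 column per library. The authors' log2 fold changes and p-values, raw and adjusted, are in that table and are taken to come from DESeq2. A further deposited table holds 1 normalized value per condition, treated as a score. The sources used here do not give how many libraries stand behind the authors' values. Those libraries may include the pair used here. A direction shared by the pair and the authors' values is therefore not independent support, for any gene named above.

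Counts were scaled with TMM factors (edgeR 4.0.16, R 4.3.3; 1.015 and 0.985) over all 27179 rows and expressed as CPM. Ratios carry exact Clopper-Pearson 95% intervals conditional on the summed count, and differences between 2 genes carry intervals from the log odds of 4 counts. No molecular identifiers are named, so intervals cover counting error only. No replicate test was possible, and "rose" and "fell" are kept for the authors' adjusted p under 0.05. The procedure was run on simulated counts that held counting error alone, the error that the intervals assume. That run cannot speak to variation between cultures or to trends with length and GC content. GC content was taken from GENCODE M21 transcripts for 95.7% of genes of at least 1 CPM. Trends were removed by lowess (statsmodels 0.14.6, span 0.3), first length, then GC. Transcripts of Lars2 and Gm15564 were aligned with BLAST 2.17.0.

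Synthetases are named in full where they met the size rule or the authors' threshold. Lists supply up to 4 genes by interval bound, or the 2 most abundant where none met the size rule. Other genes named, such as Iars, Eprs, Farsa, Farsb, Wars, Rn45s and Rn18s, were chosen after their values were seen. The members, lists and promoter motif were chosen with earlier results of these data known.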

Additional observations from a re-analysis of the deposited data

How the results depend on the processing

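The cytosolic median log2 ratio of 0.14 was 0.18 with scaling by total counts and 0.18 after removal of the trends with length and GC content. It ranged from 0.12 to 0.17 under the other scalings, thinning, a prior count of 2, other filters, the mean, removal of the length trend alone and leaving out Gars, Kars and Qars. The mitochondrial median of 0.02 was 0.06 with total counts, 0.07 as a mean, 0.03 without the length trend, 0.0024 with upper quartile factors and -0.01 without Lars2, an alternative added after seeing the data. At a minimum ratio of 5 to 4, 3 cytosolic genes were higher and 1 lower, and 2 mitochondrial genes were higher; at 2-fold 0 mitochondrial genes were higher. By the authors' deposited table, 1 cytosolic gene rose and 1 fell at an adjusted p under 0.01, and 5 cytosolic and 2 mitochondrial genes rose at under 0.1. Without Lars2, 0 mitochondrial genes rose there. Of the genes whose interval lay off equality, Mars alone changed direction under these scalings and trend removals. Of single ratios, 17 of 36 left their counting interval after removal of both trends, 14 after the length trend and 10 with total counts. No paired analysis was possible because each condition has 1 library, and for that reason no replicate could be left out. Depth limits the mitochondrial genes, with as few as 187 counts.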
